A study of Mus musculus with 6 samples.

Results

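DNA replication and mitosis genes were followed through the first steps of cartilage formation in the mouse hind limb. The group holds 50 genes, of which 49 are among the 19077 genes with a fitted value: 23 encode proteins that license origins, copy DNA at the fork or supply nucleotides, 22 act in mitosis, and 5 are regulators of the cycle, namely the E cyclins and 3 transcription factors. A gene was read from every spot whose only symbol in the probe annotation was its own, which gave 94 of 45220 spots for 49 genes. Ccnb1, a mitotic cyclin, had no spot of its own and was not measured.

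The tissue came from Swiss white mouse embryos at 11.5, 12.5 and 13.5 days post coitum (dpc). Tibial and fibular regions were microdissected, and their RNA formed 1 pool per age. The 11.5 dpc pool was pre-condensed mesenchyme of 4 hind limbs, the 12.5 dpc pool was the mesenchymal condensation of 3, and the 13.5 dpc pool was the cartilage anlagen of 4. Each pair of ages was hybridised on 2 arrays with the Cy3 and Cy5 dyes exchanged, so 6 arrays carried the 3 pools. The arrays of a pair repeated the same RNA. Errors below are therefore technical, each age counts as 1 sample, and no p-value is given.

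A cell that divides first loads the Mcm2 to Mcm7 helicase on its origins with the help of Cdc6 and Cdt1. It then starts forks with Mcm10 and the GINS complex and copies DNA with polymerases held by the Pcna clamp. In mitosis the Cdk1 kinase and its cyclins condense the chromosomes and build the spindle, and the checkpoint proteins Bub1, Bub1b and Mad2l1 hold back the separation of chromatids until each is attached. Genes of the earlier phase are known as targets of E2F factors, and genes of the later phase as targets of complexes that hold B-Myb (Mybl2) and Foxm1. Mesenchymal cells of the early limb bud divide fast, and their division is known to slow as they condense.

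The promoters of the members show both classes of element. They are printed for 3 replication genes and 3 mitosis genes that carry the motifs and differ widely in their ratios over time. Windows run 5′ to 3′ along the gene, from 250 bases before to 50 bases after the start that RefSeq gives on GRCm38.p6, and capitals mark each match. The motifs were the E2F site (TTTGGCGC or TTTCGCGC), the cell cycle genes homology region or CHR (TTTGAA or TTCGAA) and the CCAAT box (CCAAT), all searched on both strands. Rfc3 (chr5:151651159-151651458, minus strand) encodes a subunit of the clamp loader and was among the members with the lowest ratios. Mcm5 (chr8:75109259-75109558, plus strand) and Mcm6 (chr1:128359656-128359955, minus strand) encode helicase subunits and had small ratios. Top2a (chr11:99024140-99024439, minus strand), the topoisomerase that untangles chromosomes, and Bub1 (chr2:127831810-127832109, minus strand), the checkpoint kinase, had low ratios at 13.5 dpc. Cdk1 (chr10:69352863-69353162, minus strand) carried all 3 motifs.
Rfc3: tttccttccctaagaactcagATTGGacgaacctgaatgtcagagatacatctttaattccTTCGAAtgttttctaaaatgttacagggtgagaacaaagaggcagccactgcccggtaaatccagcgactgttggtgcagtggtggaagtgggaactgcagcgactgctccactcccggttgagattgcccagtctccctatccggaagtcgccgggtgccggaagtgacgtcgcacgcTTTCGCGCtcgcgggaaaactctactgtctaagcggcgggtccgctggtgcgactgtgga
Mcm5: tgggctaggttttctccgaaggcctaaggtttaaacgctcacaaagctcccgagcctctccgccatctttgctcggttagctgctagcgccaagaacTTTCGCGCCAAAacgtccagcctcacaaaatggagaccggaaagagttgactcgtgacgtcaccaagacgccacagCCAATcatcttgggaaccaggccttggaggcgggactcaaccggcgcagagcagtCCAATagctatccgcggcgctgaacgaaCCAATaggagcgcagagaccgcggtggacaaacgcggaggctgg
Mcm6: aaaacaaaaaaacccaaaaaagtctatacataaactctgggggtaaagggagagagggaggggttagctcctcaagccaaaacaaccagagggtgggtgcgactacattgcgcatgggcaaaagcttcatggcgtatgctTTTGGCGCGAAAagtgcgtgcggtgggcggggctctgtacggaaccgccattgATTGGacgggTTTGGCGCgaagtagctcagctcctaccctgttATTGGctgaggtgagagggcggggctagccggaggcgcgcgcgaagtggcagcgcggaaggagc
Top2a: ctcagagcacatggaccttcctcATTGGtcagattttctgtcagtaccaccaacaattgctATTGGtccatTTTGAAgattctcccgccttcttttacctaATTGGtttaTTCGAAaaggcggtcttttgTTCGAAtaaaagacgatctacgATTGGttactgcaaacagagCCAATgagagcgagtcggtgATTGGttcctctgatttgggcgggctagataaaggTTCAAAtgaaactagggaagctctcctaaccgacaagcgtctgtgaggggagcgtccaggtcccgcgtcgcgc
Bub1: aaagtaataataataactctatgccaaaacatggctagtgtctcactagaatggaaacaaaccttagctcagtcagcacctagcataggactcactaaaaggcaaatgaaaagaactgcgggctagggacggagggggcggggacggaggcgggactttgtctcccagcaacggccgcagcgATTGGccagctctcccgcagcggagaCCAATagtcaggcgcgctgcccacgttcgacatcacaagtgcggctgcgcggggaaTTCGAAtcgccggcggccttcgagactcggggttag
Cdk1: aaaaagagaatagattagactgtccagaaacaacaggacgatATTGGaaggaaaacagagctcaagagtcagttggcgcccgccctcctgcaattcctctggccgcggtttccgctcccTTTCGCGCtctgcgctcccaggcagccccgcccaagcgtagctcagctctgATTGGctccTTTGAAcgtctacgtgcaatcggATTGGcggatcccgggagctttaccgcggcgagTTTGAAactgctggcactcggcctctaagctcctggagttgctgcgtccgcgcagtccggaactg
In Mcm5 and in Mcm6 a pair of E2F sites on opposite strands overlapped by 4 bases, which is why a longer run is in capitals there, and Mcm6 had a further E2F site 47 bases before the start. The Top2a window held 4 CHR matches and 6 CCAAT boxes. In Cdk1 the E2F site began 131 bases before the start and the CHR matches began 71 and 15 bases before it.

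A window was available for 39 of the 50 members. An E2F site was found in 8 of 19 replication genes (42.1%) and 1 of 17 mitosis genes (5.88%), against 0.929% of all 27025 genes with a window. A CHR was found in 4 of 19 replication genes (21.1%) and 12 of 17 mitosis genes (70.6%), against 21.7% of all genes. All 12 mitosis genes with a CHR also had a CCAAT box, a combination present in 8.61% of all genes. A further list of 42 replication and 65 mitosis genes, drawn up from their known roles, gave shares of 11.4% and 5.26% for the E2F site and of 17.1% and 71.9% for the CHR. The windows of the 3 regulators that had one (Ccne1, E2f1 and Mybl2) held none of the motifs in these letters. Each had 1 window, so a promoter at another start of these genes, E2f1 among them, was not searched. Whether the windows are the promoters in use was not tested.

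**Figure D1:**
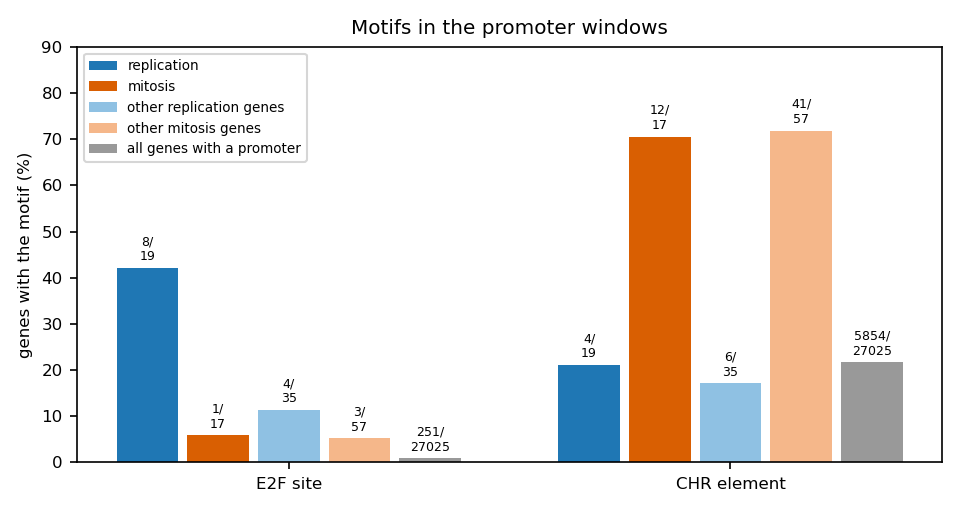
Percent of genes (vertical axis) whose window of 300 bases at the start site holds an E2F site or a CHR element, for replication and mitosis members, the further lists and all genes; the figures over the bars are genes with the motif over genes with a window. The E2F site was found in 42.1% of replication members and the CHR in 70.6% of mitosis members.

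Of the 9 members with a window whose RNA was at least 2-fold lower at 13.5 dpc than at 11.5 dpc, 1 had an E2F site and 4 had a CHR. Of the 29 other measured members with a window, 8 had an E2F site and 12 had a CHR. The median log2 ratio of 13.5 over 11.5 dpc was -0.44 over 9 members with an E2F site and -0.50 over 29 without, and -0.42 over 16 members with a CHR and -0.52 over 22 without. Over the first day the medians were -0.35 with and -0.14 without an E2F site, and -0.094 with and -0.32 without a CHR. Over the second day they were -0.17 with and -0.38 without an E2F site, and -0.29 with and -0.36 without a CHR. These are descriptions of the members, with no test.

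Between 11.5 and 13.5 dpc the replication and mitosis genes were lower as a group, and in the fit to all 6 arrays no member was 2-fold higher. A ratio is the log2 of the later over the earlier age, fitted to all 6 arrays after each was centred on its median, so -1 is 2-fold lower. Of 49 measured members, 13 were at least 2-fold lower at 13.5 dpc, against 8.5% of all 19077 genes, and 0 were at least 2-fold higher, against 7.43%. At the 3-fold difference that the study used as its threshold, 5 members were lower (2.57% of all genes): Hells, Top2a, Rfc3, Bub1 and Stmn1. The ratio was below 0 for 43 of 49 members (45.4% of all genes). On both direct arrays 28 of 49 were lower (35.3%), and 18 were lower on all 6 centred arrays (11.1%). The count of 18 rests on centring. Without it 7 of 49 members were lower on both arrays of 12.5 over 11.5 dpc (8.72% of all genes), so no more could be lower on all 6. The median ratio was -0.59 over 23 replication genes, -0.49 over 21 mitosis genes and 0.29 over the 5 regulators, against 0.07 over all genes.

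The arrays of this pair differed in size. With the 13.5 dpc RNA in Cy5 the median was -0.24 for replication and -0.21 for mitosis genes, and with the 13.5 dpc RNA in Cy3 it was -1.05 and -0.81. The Cy5 array gave the higher ratio for 44 of 49 members, as it did for 60.4% of all genes. The part of the dye in single values was not tested. Hells, Top2a, Gins1, Ccne2, Fen1, Cdc6, Gins2, Rfc3, Bub1 and Mad2l1 were at least 2-fold lower on each of these arrays, and Pcna, Rrm2 and Stmn1 on that with the 13.5 dpc RNA in Cy3 only.

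**Figure D2:**
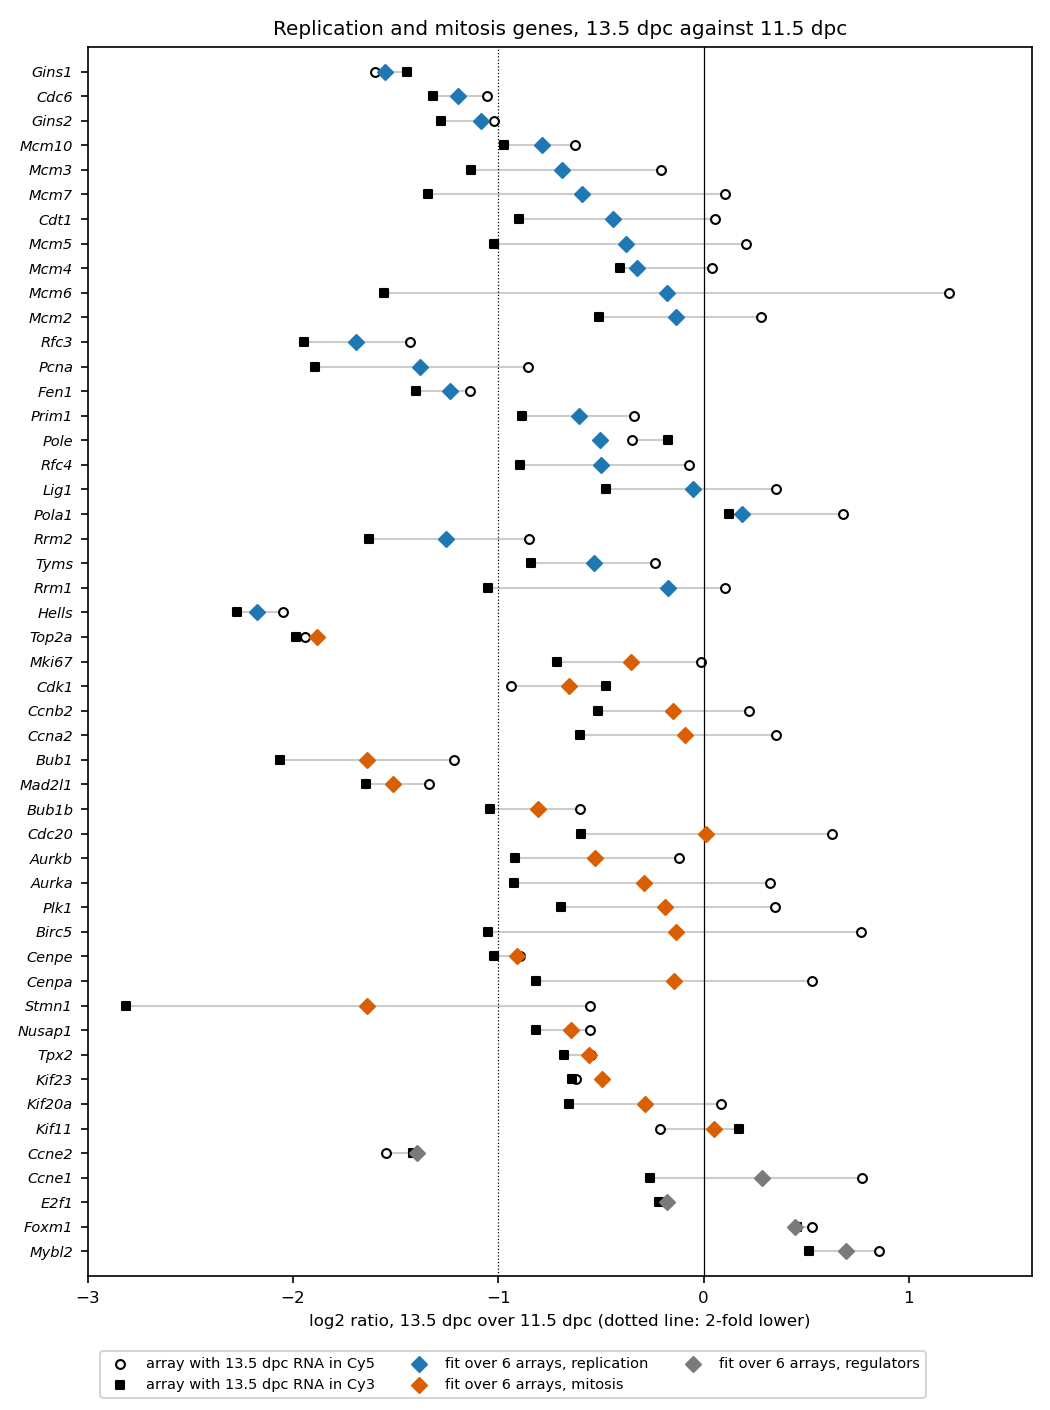
Log2 ratio of 13.5 over 11.5 dpc (horizontal axis) for each of the 49 measured members, in order of list and subgroup; circles and squares are the direct arrays of either dye combination, diamonds are the fit to 6 arrays, and the dotted line is 2-fold lower. Hells (-2.18) had the lowest fit and Mybl2 (0.69) the highest.

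Hells had the lowest ratio of all members. It encodes a helicase of the SNF2 family that remodels chromatin and helps to maintain DNA methylation. Its log2 ratios were -1.21 and -0.82 on the arrays of 12.5 over 11.5 dpc, -1.63 and -0.75 on those of 13.5 over 12.5 dpc, and -2.05 and -2.27 on those of 13.5 over 11.5 dpc. It was below 0 on all 6 arrays, and the fit put it 4.52-fold lower at 13.5 dpc than at 11.5 dpc (-2.18 ± 0.20, technical SE). It was also the only member at least 2-fold lower over the first day, by 2.00-fold (2.56% of all genes were). This value lies at the threshold: with each array left out in turn, between 0 and 2 members passed it. With dye combination 2 alone, in which the later RNA is in Cy3, 6 members did (4.32% of all genes). With dye combination 1 alone 0 did (2.53%), and without centring 0 did (0.456%).

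Among the genes that license origins and unwind DNA, Gins1, Cdc6 and Gins2 were at least 2-fold lower. Gins1, a subunit of the GINS complex that joins the helicase at the fork, had -1.60 and -1.44 on the arrays of 13.5 over 11.5 dpc and a fit of -1.55 ± 0.15. Most of this lay in the second day (-0.37 for 12.5 over 11.5 dpc and -1.18 for 13.5 over 12.5 dpc). Gins2, of the same complex, had a fit of -1.08 ± 0.15, and Cdc6, the loader of the helicase, had -1.19 ± 0.15. Both were below 0 on all 6 centred arrays. Mcm10, which helps to activate the helicase, had -0.79 ± 0.14 and was also below 0 on all 6 centred arrays. Without centring Gins2 and Mcm10 were above 0 on the array of 12.5 over 11.5 dpc with the later RNA in Cy5. Cdt1, the partner of Cdc6 in loading, had -0.44 ± 0.21 with direct arrays of 0.06 and -0.90.

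Of the 6 core helicase genes Mcm2 to Mcm7, 0 were at least 2-fold lower, which with 8.5% of all genes called is near the share of all genes. Their fits for 13.5 over 11.5 dpc ran between -0.69 (Mcm3) and -0.13 (Mcm2), with a median of -0.35. In 5 of the 6 the direct arrays had opposite signs, which 30.7% of all genes had. Mcm6 showed this most: 1.19 with the 13.5 dpc RNA in Cy5 and -1.56 with it in Cy3, against a fit of -0.18 ± 0.72. For Mcm6 these arrays thus set no direction. Mcm3 was the one with both direct arrays below 0 (-0.21 and -1.13). Mcm4 was read from 2 spots that disagreed: one had a fit of -1.41, and a weak one had 0.77. A spot is called weak here when its values lie on ratios of small whole numbers on 2 or more arrays, a mark of few signal units that 15051 of 45220 spots carry. Without weak spots Mcm4 was past 2-fold lower.

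At the fork, Rfc3, Pcna and Fen1 were at least 2-fold lower. Rfc3 had -0.97 and -0.54 on the arrays of 12.5 over 11.5 dpc, -1.02 and -0.87 on those of 13.5 over 12.5 dpc, and -1.43 and -1.94 on those of 13.5 over 11.5 dpc. It was 3.23-fold lower at 13.5 than at 11.5 dpc (-1.69 ± 0.14), and all 6 arrays lay below 0. Rfc4, another subunit of the same clamp loader, had -0.50 ± 0.20 and lay at 0.09 over the first day. Fen1, the nuclease that trims the ends of Okazaki fragments, had -1.24 ± 0.09, with a first day of -0.93 and a second of -0.31 on centred arrays.

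Pcna, the sliding clamp, was read from 10 spots. On the array of 13.5 over 11.5 dpc with the later RNA in Cy5 the spots averaged -0.86 with an SD of 0.051, and on that with the later RNA in Cy3 they averaged -1.90 with an SD of 0.064. Spots on 1 array thus lay much closer together than the 2 arrays did. The fit was -1.38 ± 0.23, or 2.60-fold lower. With the arrays centred the steps of Pcna were about equal (-0.71 and -0.67), but without centring the second was the more negative. The remaining fork genes had smaller ratios: -0.61 for Prim1, the primase, -0.05 for Lig1, the ligase, and -0.50 ± 0.40 for Pole, the leading strand polymerase, from a spot with -0.071 and a weak spot with -0.94. Pola1, the polymerase that extends primers, had a fit of 0.19 from a spot with -0.84 and a weak spot with 1.22 that lacked a value on 1 array, so no SE is given.

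Of the genes for nucleotide supply, Rrm2 was 2.39-fold lower at 13.5 than at 11.5 dpc (-1.26 ± 0.17). It encodes the small subunit of ribonucleotide reductase, the one that is made anew in each S phase. It had -0.86 and -0.88 on the arrays of 12.5 over 11.5 dpc and -0.57 and -0.28 on those of 13.5 over 12.5 dpc, so the first day held the larger part with the arrays centred, though not without centring. Rrm1, the large subunit, had -0.57 on its spot with 6 values and 0.23 on a weak spot with 3, and a fit of -0.17 over both. Tyms, the thymidylate synthase, had -0.53 ± 0.13, with 1 of its 3 spots above 0.

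Of 21 measured mitosis genes, 4 were at least 2-fold lower at 13.5 dpc than at 11.5 dpc (8.5% of all genes): Top2a, Stmn1, Bub1 and Mad2l1. Top2a had the smallest technical SE of all members. Its log2 ratios were -0.34 and -0.18 on the arrays of 12.5 over 11.5 dpc, -1.49 and -1.44 on those of 13.5 over 12.5 dpc, and -1.94 and -1.98 on those of 13.5 over 11.5 dpc. Its 3 spots had fits between -2.22 and -1.70. It was 3.69-fold lower over both days (-1.88 ± 0.07) and 2.92-fold lower over the second day alone. Mki67, the gene of the proliferation marker Ki-67, had -0.35 ± 0.16, from spots with -0.81 and 0.11.

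Of the checkpoint genes, Bub1, Mad2l1 and Bub1b were lower at 13.5 dpc and Cdc20 was near 0. Bub1 had -0.42 and -0.40 on the arrays of 12.5 over 11.5 dpc, -1.14 and -1.32 on those of 13.5 over 12.5 dpc, and -1.21 and -2.06 on those of 13.5 over 11.5 dpc. It was 3.11-fold lower at 13.5 than at 11.5 dpc (-1.64 ± 0.18), and its first day was small beside its second. Mad2l1 had -1.34 and -1.64 on the direct arrays and a fit of -1.52 ± 0.17. Its steps were nearly equal with the arrays centred (-0.71 and -0.80). Without centring the first lay nearer to 0 and the second further below it. Bub1b had -0.81 ± 0.15, and all 3 of these genes were below 0 on each of the 6 centred arrays. Without centring Bub1 and Bub1b were above 0 on the array of 12.5 over 11.5 dpc with the later RNA in Cy5. Cdc20, the activator of the ligase that ends the checkpoint, had 0.63 and -0.60 on the direct arrays and a fit of 0.01 ± 0.29.

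The measured cyclins of Cdk1 had small fitted ratios, while the spots of Cdk1 itself disagreed. Ccna2 had -0.09 ± 0.20 and Ccnb2 had -0.15 ± 0.16, each with direct arrays of opposite sign. Cdk1 was read from a spot with -1.48, below 0 on all 6 arrays, and a weak spot with 0.16, which gave a mean of -0.66 ± 0.14. Without weak spots Cdk1 joined the members at least 2-fold lower, with Mcm4, for 15 of 49 members against 11.6% of all genes.

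The mitotic kinases and the passenger protein lay nearest to 0 among the mitosis subgroups beside the cyclins, with a median of -0.24 for 13.5 over 11.5 dpc. Aurkb had -0.53 ± 0.24, Aurka -0.29 ± 0.29, Plk1 -0.19 ± 0.22 and Birc5, the survivin gene, -0.13 ± 0.54. Birc5 had 0.77 and -1.05 on the direct arrays, so its sign was not set. At the centromere, Cenpe, a kinesin that holds chromosomes to the spindle, had -0.91 ± 0.11 over 3 spots, the member nearest to 2-fold without reaching it. Cenpa, the histone of the centromere, had spots with -0.87 and 0.58 and a fit of -0.14 ± 0.33.

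Stmn1 encodes stathmin, which takes microtubules apart and is also made in cells that do not divide. Its ratios were -0.06 and -1.67 on the arrays of 12.5 over 11.5 dpc, -0.19 and -1.21 on those of 13.5 over 12.5 dpc, and -0.55 and -2.81 on those of 13.5 over 11.5 dpc. The higher value of each pair was on the array with the later RNA in Cy5. One of its 2 spots carried this difference (0.36 and -3.71 for 13.5 over 11.5 dpc), while the other had -1.47 and -1.91. The fits of the spots were -1.60 and -1.68, and the gene was 3.12-fold lower with a technical SE of 0.60.

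The spindle and cytokinesis genes other than Stmn1 were less than 2-fold different at 13.5 dpc. Nusap1 had -0.65 ± 0.10, Tpx2 -0.56 ± 0.17, Kif23 -0.49 ± 0.14 and Kif20a -0.29 ± 0.15. Kif11, the motor that pushes spindle poles apart, had 0.05 ± 0.10 from 3 spots with -0.91, 0.34 and, on a weak spot, 0.73. Kif23, a motor of the central spindle, lay at 0.84 and 0.39 on the arrays of 12.5 over 11.5 dpc and at -0.73 and -0.94 on those of 13.5 over 12.5 dpc, so it was higher at 12.5 dpc than at either other age in the mean of its 3 spots.

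The regulators differed in direction. Ccne2 was 2.64-fold lower at 13.5 than at 11.5 dpc, with -1.55 and -1.42 on the direct arrays and a fit of -1.40 ± 0.13. All 6 of its centred arrays lay below 0. Without centring its array of 12.5 over 11.5 dpc with the later RNA in Cy5 lay above 0. Ccne1, the other E cyclin, had 0.77 and -0.26 and a fit of 0.29 ± 0.22. Both bind Cdk2 at the entry to S phase. The transcription factor gene Foxm1 had 0.53 and 0.46 on the direct arrays and 0.45 ± 0.09 in the fit. It was above 0 on all 6 centred arrays, which 6.58% of all genes were. Without centring its array of 13.5 over 12.5 dpc with the later RNA in Cy3 was below 0. Mybl2 had 0.86 and 0.51 and a fit of 0.69 ± 0.15, or 1.62-fold higher. With the arrays centred all of it lay in the second day (-0.05 and then 0.75). Without centring both of its arrays of 12.5 over 11.5 dpc were above 0. E2f1, read from 11 spots, had -0.70 ± 0.16 for 12.5 over 11.5 dpc and 0.52 for 13.5 over 12.5 dpc, which left -0.18 over both days. Without centring both of these fitted steps of E2f1 kept their signs but were smaller in size. Its spots were not all alike: 1 of the 11 had 0.17 over the first day and -0.006 over the second.

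**Figure D3:**
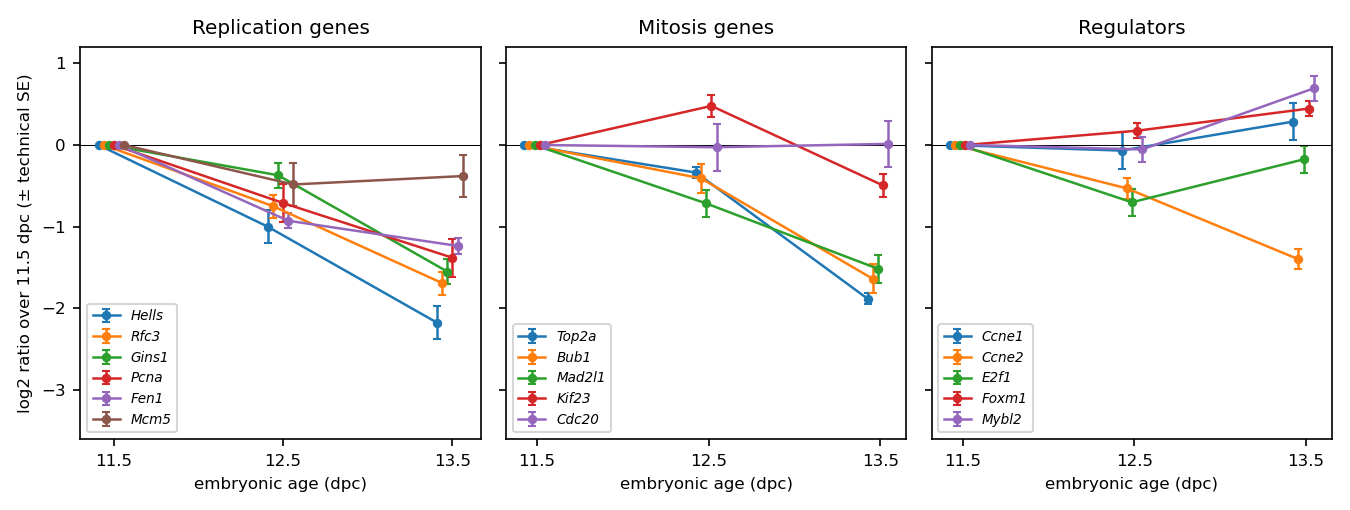
Fitted log2 ratio over 11.5 dpc (vertical axis) at 11.5, 12.5 and 13.5 dpc (horizontal axis) for named replication genes, mitosis genes and regulators; bars are the technical SE of the 6 arrays, and 11.5 dpc is 0 by construction. Hells ended at -2.18 and Top2a at -1.88, while Cdc20 stayed near 0 and Mybl2 ended at 0.69.

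On centred arrays the list medians differed more over the first day than over the second. For replication genes, which step was the larger depended on the settings. Over the first day the median was -0.37 for replication genes and -0.12 for mitosis genes, against -0.01 for all genes, and over the second day it was -0.36 and -0.41, against -0.04. The first-day medians turned to 0.078 and 0.33 where the arrays were not centred, and all genes then moved to 0.44. Centring shifts whole arrays, so the medians relative to all genes stay near -0.36 and -0.11 by construction. The mitosis first-day median was also above 0 where arrays were centred on spots that are not weak (0.057). With dye combination 1 alone, in which the later RNA is in Cy5, it was 0.008. Relative to all genes, the mitosis first-day median was 0.042 without weak spots and 0.010 with dye combination 1 alone. That of replication genes was -0.23 and -0.18. On both arrays of 12.5 over 11.5 dpc 18 of 23 replication genes and 10 of 21 mitosis genes were lower (36.8% of all genes). Centred on spots that are not weak the counts were 14 of 23 and 4 of 21 (26.4%), and without centring 5 of 23 and 1 of 21 (8.72%). On both arrays of 13.5 over 12.5 dpc 16 of 23 and 15 of 21 were (30.0%). At least 2-fold lower over the second day were Top2a, Bub1, Gins1 and Hells (3.7% of all genes). Without centring 10 members were (8.74% of all genes), and centred on spots that are not weak 6 were (5.03%).

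The ratio was more negative in the first day than in the second for 6 of 21 mitosis genes and 13 of 23 replication genes, against 49.9% of all genes. With dye combination 1 alone the counts were 3 of 21 mitosis and 11 of 23 replication genes (49.3% of all genes), and with dye combination 2 alone 6 of 21 and 16 of 23 (53.3%). Centred on spots that are not weak they were 1 of 21 and 7 of 23 (36.8%), and without centring 0 of 21 and 0 of 23 (17.3%). Without weak spots the counts were 7 of 21 for mitosis and 14 of 23 for replication genes, where all genes gave 62.9%. Both steps rest on the same 12.5 dpc pool, and with 1 pool per age the difference between the lists was not tested. Among single genes, Fen1, Rrm2 and Mcm3 had the larger part in the first day with the arrays centred on their medians, an order that turned for all 3 without centring. Top2a, Bub1, Gins1 and Cenpe had it in the second.

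**Figure D4:**
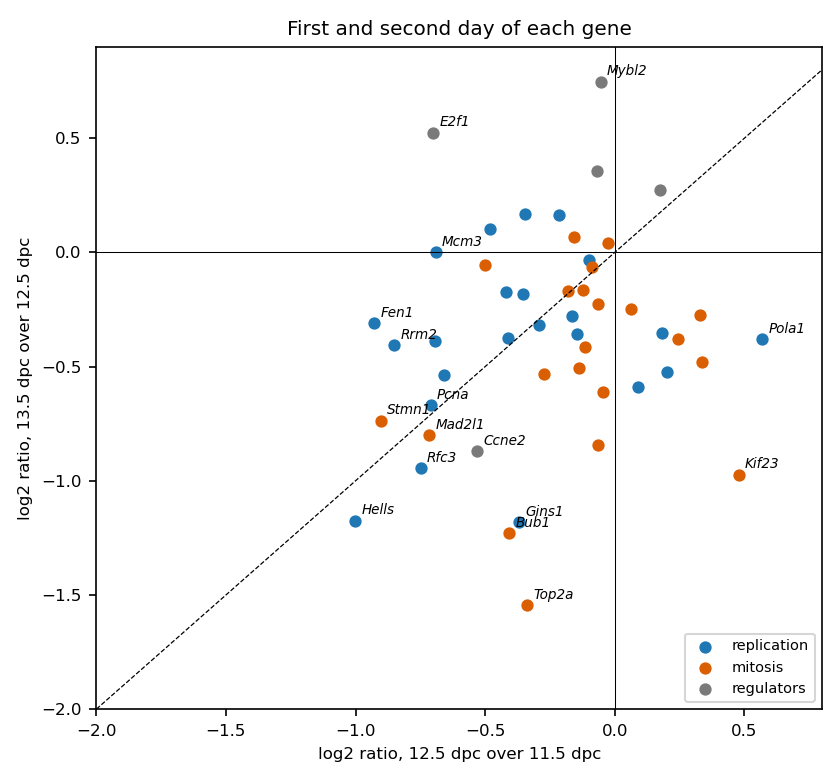
Fitted log2 ratio of 12.5 over 11.5 dpc (horizontal axis) against that of 13.5 over 12.5 dpc (vertical axis) for the 49 measured members; the dashed line marks equal steps. Points above the dashed line and below 0 on both axes had the larger part in the first day, as Fen1 did. Top2a, Bub1 and Gins1 lie well under the line. Without centring every point shifts to the right and down.

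Further genes of the same processes gave similar medians. Of 42 other replication genes 41 were measured, with a median of -0.67 for 13.5 over 11.5 dpc; 9 were at least 2-fold lower and 0 higher (8.5% and 7.43% of all genes). Of 65 other mitosis genes 61 were measured, with a median of -0.69; 19 were at least 2-fold lower and 0 higher, against the same shares. Over the first day these lists had medians of -0.40 and -0.22, and over the second of -0.22 and -0.49. The largest ratios of 13.5 over 11.5 dpc with the same sign on both direct arrays were those of the centromere genes Cenph (-1.87 ± 0.41), Spc25 (-1.81 ± 0.16) and Cenpq (-1.60 ± 0.20), and of Pole2 (-1.19), a subunit of the leading strand polymerase, the origin recognition gene Orc5 (-1.15) and Gins3 (-1.13 ± 0.07). Pole2 and Orc5 have no SE because a weak spot of each lacked values, and Orc5, with -3.86 and -2.38 on its direct arrays, had a fit far outside them.

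**Figure D5:**
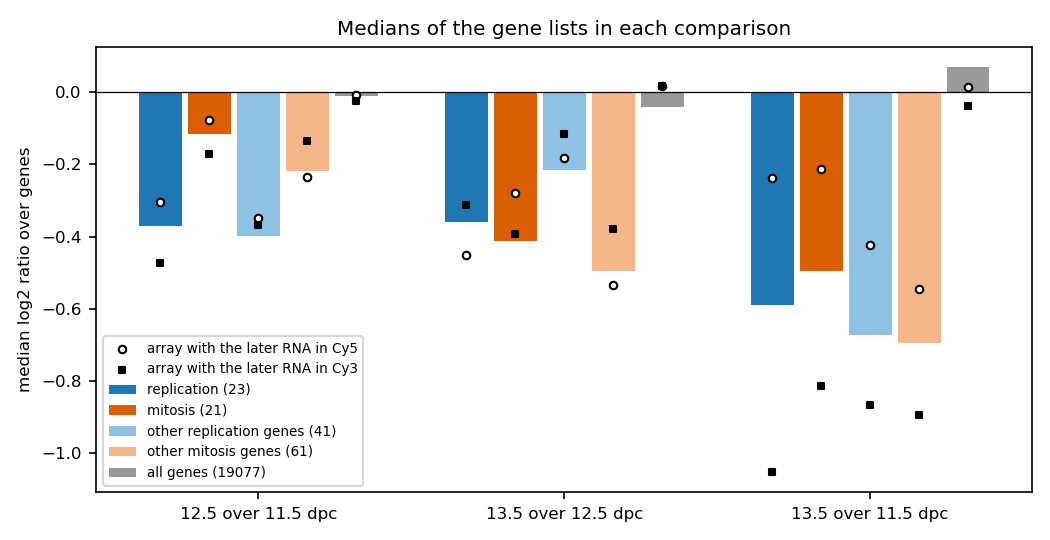
Median log2 ratio over the genes of a list (vertical axis) in each comparison of ages; bars are medians of the fits, circles and squares the medians on the direct array of either dye combination, and numbers in brackets are genes measured. Replication genes lay at -0.37, -0.36 and -0.59 and mitosis genes at -0.12, -0.41 and -0.49; without centring the first-day medians of replication and mitosis genes turn to 0.078 and 0.33.

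Other cells in the dissected tissue changed in their markers over the same interval. Of all genes, 8.5% were at least 2-fold lower at 13.5 dpc than at 11.5 dpc and 7.43% at least 2-fold higher. Cartilage markers bore out the tissue labels, with a median of 3.15 for 13.5 over 11.5 dpc and 10 of 11 at least 2-fold higher; Sox9, with -0.40, was the exception. Of 6 measured erythroid markers, 4 were at least 2-fold lower (median -2.20, range -5.02 to -0.60), and of 7 endothelial markers 3 were (median -0.64, range -1.80 to 0.13). The medians were -0.28 over 6 macrophage markers (range -0.77 to 0.29) and 0.00 over 7 ectoderm markers (range -1.20 to 0.08). Of 10 skeletal muscle markers 3 were at least 2-fold higher (median 0.39, range -0.42 to 3.03). Of 4 measured Schwann and neural crest markers 2 were (median 1.22, range -0.12 to 7.02), and the highest, S100b, is also a gene of cartilage cells. The part of these cells in the members' ratios was not tested, and ratios give no absolute level. In a pool of tissue fewer dividing cells and less RNA of these genes per cell cannot be told apart.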

How the data were processed

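Per the labels and methods, RNA from each age was amplified in 2 rounds, labelled with Cy3 or Cy5, hybridised to whole genome arrays and quantified with GenePix Pro 4.1. The authors deposited 1 log2 ratio of Cy5 over Cy3 per spot. The methods describe a print-tip loess step, but column medians between -0.36 and 0.72 and values on ratios of small whole numbers do not show it. Intensities were not used, so signal depth is unknown. Values beyond 16 in either direction were treated as missing. Each array was centred on its median, turned to later over earlier, and fitted by least squares in Python 3.11.15 with numpy 2.4.6 (checked against limma 3.58.1 and on simulated data). Spots of a gene were averaged, and the SE comes from the scatter of the 6 arrays (4 residual degrees of freedom). Spots were named through the probe annotation: 33653 carry 1 symbol, 56 several and 11511 none. The named genes are, per subgroup, those with the largest and smallest difference, all past 2-fold or opposite to their list, and the 3 largest of each further list; some others were named after their values were seen. Members and lists were chosen with earlier results of these data known. Alternatives were centring, scaling, path, dye combination, leaving out each array, spot rules and thresholds.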

Additional observations from a re-analysis of the deposited data

Results flagged for a closer look

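With each array centred on its median, in 7 members both arrays of 12.5 over 11.5 dpc had one sign and both arrays of 13.5 over 12.5 dpc the other. The first-day minus the second-day ratio was 1.45 log2 for Kif23, 0.81 for Cenpa and 0.60 for Kif11, which were higher at 12.5 dpc than at either other age in the mean of their spots. Without its weak spot Kif11 had -0.048 over the first day and so was not higher at 12.5 dpc, and 1 of the 2 Cenpa spots had -0.05. The first-day minus the second-day ratio was -1.23 for E2f1, -0.59 for Mcm5, -0.38 for Lig1 and -0.22 for Ccna2, which were lower at 12.5 dpc on centred arrays. Centring took medians of 0.725 and 0.355 off the arrays of 12.5 over 11.5 dpc. Without it Lig1 and Ccna2 were above 0 on both of these arrays, and Mcm5 had opposite signs there. Among all 19077 genes 11.6% were higher and then lower on all 4 arrays and 15.5% lower and then higher. Both steps share the 12.5 dpc pool of 3 hind limbs, and the difference was not tested.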

How the results depend on the processing

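At least 2-fold lower at 13.5 dpc than at 11.5 dpc were 13 members. The count ran between 12 and 13 when each array was left out (7.77% to 9.57% of all genes). It was 11 with dye combination 1 alone (10.4% of all genes) and 17 with dye combination 2 alone (10.1%). At 1.5-fold it was 21 (18.9% of all genes) and at 3-fold 5 (2.57%). With dye combination 1 alone 1 member, Mcm6, was at least 2-fold higher, against 10.6% of all genes. All 13 were below 0 under each of 17 alternatives. Under single settings Gins2, Pcna and Stmn1 were less than 2-fold lower, with highest values of -0.91, -0.94 and -0.45. With the replicate block (dye combination as a term) 13 members were again past 2-fold and the replication median was -0.59; the numbers mark the dyes and pair no animals. Leaving out each array gave medians for 13.5 over 11.5 dpc between -0.86 and -0.47 for replication and between -0.56 and -0.34 for mitosis genes. The first-day median of replication genes was 0.078 without centring, -0.20 centred on spots that are not weak, -0.18 with dye combination 1 alone and -0.52 with dye combination 2 alone. That of mitosis genes was 0.33, 0.057, 0.008 and -0.29 under these settings and lay between -0.22 and -0.032 when each array was left out. Over the second day the replication median was -0.65 without centring and -0.47 centred on spots that are not weak, and the mitosis median was -0.69, -0.51, -0.20 with dye combination 1 alone and -0.53 with dye combination 2 alone, and between -0.53 and -0.31 when each array was left out. Centring moves all genes together; the cause of the dye difference was not tested. Of all genes, without centring, 5.91% were at least 2-fold lower and 10.3% higher at 13.5 dpc than at 11.5 dpc, against 8.5% and 7.43%. With 1 pool per age the arrays limit technical precision only.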
